A study of Mus musculus with 6 samples.

Results

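Microglia and macrophages made up 591 of 23258 cells, 2.54%, in 6 single-cell RNA libraries from mouse retinal cultures of Müller glia, the main glial cell of the retina. They were chosen by their RNA: a cell was kept if it had at least 500 detected genes and at most 10% mitochondrial UMIs, and was a member if at least 6 of 9 marker genes had 1 or more UMIs. The 9 markers were Lyz2 (lysozyme), C1qa, C1qb and C1qc (the chains of complement C1q), Tyrobp and Fcer1g (signalling adaptors of immune receptors), Trem2 (a lipid-sensing receptor that signals through Tyrobp), Ms4a7 (a membrane protein of macrophages) and Ctss (cathepsin S). A UMI, or unique molecular identifier, tags 1 captured RNA molecule. All of these markers chose the members, so their levels describe the cells and test nothing.

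Microglia are the resident macrophages of the retina and brain. They take up debris, prune synapses, clear lipid in lysosomes and signal to glia and neurons through chemokines, and they depend on signalling through the receptor Csf1r. In culture and after injury they lower their resting-state genes and raise genes of lipid handling and phagocytosis, and border macrophages and monocytes that enter the tissue share many of their genes. miRNAs are short RNAs that pair through a seed near their 5′ end with sites in target mRNAs and lower the mRNA or its translation. A mimic adds a miRNA, and an antagomiR blocks one.

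Each treatment had 1 library, and every difference below therefore compares libraries. The labels name a let-7 antagomiR, a miR-25 mimic, a miR-124 mimic, the let-7 antagomiR with the miR-25 mimic (the double combination), those 2 with the miR-124 mimic (the triple combination), and a control miRNA mimic with a control antagomiR. Every RNA was used at 500 nM, delivered with Lipofectamine to papain-dissociated retinal cultures grown with serum, N2, L-glutamine and EGF, per the labels' protocols. All groups shared this culture and carrier, and every label names the cells as Müller glia, so the members are another cell type within those cultures. The sources used here do not give strain or age. The libraries held 105 members of 3128 kept cells with let-7 antagomiR, 77 of 5168 with miR-25 mimic, 110 of 3598 in the miR-124-labelled library, 72 of 2759 in the double combination, 103 of 4084 in the triple-labelled library, and the rest of the 591 among 4521 in the control.

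Since no treatment was repeated, no difference between treatments has a replicate error and no test between them was made. Intervals below are 95% intervals that cover counting error only. A level is given as CPM, the UMIs of a gene per 1000000 UMIs summed over the members of a library. A ratio between treatments is the log2 ratio of CPM + 20, which understates the change of low genes. It is called 2-fold where it reaches 1 in either direction. Summed member UMIs ranged from 308712 in the double combination to 778382 with let-7 antagomiR, so a count of 0 allows up to 9.72 and 3.85 CPM there. The median member had 4022 to 7013 UMIs by library, against 3488 to 5885 in the other kept cells, and the median mitochondrial share was 2.94% to 3.32% in members, against 4.23% to 5.19% in the others.

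Some libraries are used with reserve. In the other kept cells, the log2 ratio to control of genes with a miR-25 seed site minus that of genes without one, after trends with UTR length, level and GC content were taken out, was -0.060 with miR-25 mimic and -0.085 in the double combination. In the triple-labelled library, whose label names the same mimic, it was 0.016. The same difference for let-7 sites was 0.020 with let-7 antagomiR and 0.040 in the double combination. It was 0.041 in the miR-124-labelled library, whose label names no antagomiR, and -0.016 in the triple-labelled library, whose label names one. Some of these differences thus did not follow the labels of the miR-124-labelled and triple-labelled libraries. Others were as small without a label to match: the let-7 difference was -0.017 with miR-25 mimic. The miR-25 difference in the miR-124-labelled library was 0.0003. All rest on 1 library each and have no error, so whether the labels hold was not tested. The miR-124-labelled and triple-labelled libraries are called by their labels throughout. Of the double combination, the 3014 barcodes in the readable part of the matrix were used. Between 9 and 30 kept barcodes were shared by a pair of libraries, and 0 were shared among members.

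Few cells lay near the rule's threshold, which is a description of the values that chose the members. Of the kept cells, 19720 had none of the 9 markers and 2705 had 1, while 498 had all 9. Only 7 cells just missed the rule with 5 markers, and they carried a median of 11 marker UMIs (6 to 18). The 9 cells just inside it with 6 markers carried a median of 18 (8 to 79). The 9 genes took a median of 3.98% of a member's UMIs (0.121% to 12.1%) and at most 1.73% in any other kept cell.

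The share of members was lowest with miR-25 mimic, at 1.49% of kept cells (1.18% to 1.86%). It was 3.36% (2.75% to 4.05%) with let-7 antagomiR, 3.06% (2.52% to 3.67%) in the miR-124-labelled library, 2.61% (2.05% to 3.28%) in the double combination, 2.52% (2.06% to 3.05%) in the triple-labelled library and 2.74% (2.29% to 3.26%) in the control. The miR-25 interval lay below the other 5, which overlapped each other. The double combination, which names the same mimic, did not share the low value.

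**Figure D1:**
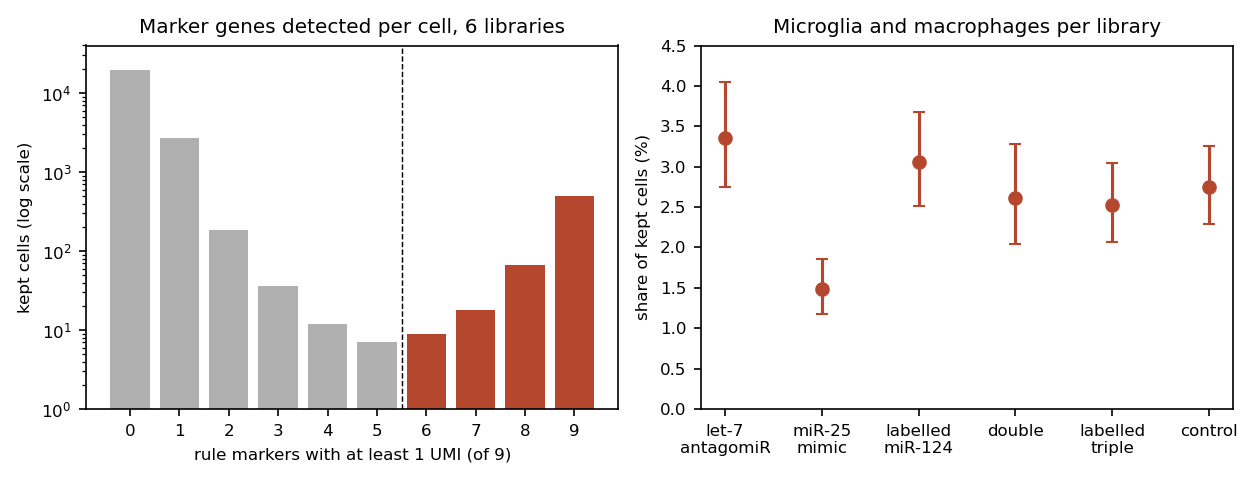
Left, kept cells of all 6 libraries by the number of rule markers with at least 1 UMI, on a log axis; the dashed line marks the rule, with 9 cells just inside it and 7 just outside. Right, members as a share of kept cells in each library, with exact Clopper-Pearson 95% intervals (counting error only); miR-25 mimic is lowest at 1.49%.

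The members carried lysozyme at a level of 12947 CPM or more in every library. Lyz2 was at 16274 CPM with let-7 antagomiR, 12947 after miR-25 mimic, 18004 in the miR-124-labelled library, 13919 in the double combination, 17852 in the triple-labelled library and 18227 in the control, against 12.1 to 22.4 CPM in other kept cells. The C1q chains were close to each other, with C1qa at 3418 to 4273, C1qb at 2248 to 3594 and C1qc at 3518 to 4007 CPM. Tyrobp was at 4111 to 5797, Fcer1g at 3019 to 3620, Trem2 at 1322 to 1987, Ms4a7 at 1527 to 2028 and Ctss at 920 to 1377 CPM. None of the 9 was 2-fold different from control in any treated library. After each cell was thinned to 2000 UMIs, 99.5% of members and 3.51% of other cells had a Lyz2 UMI, and 77.7% and 0.183% had a Ctss UMI.

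Genes outside the rule gave the same cells a broad myeloid profile. Of 383 genes with at least 200 CPM in the members of every library, the rule markers among them, 98 (25.6%) were at least 2-fold over other kept cells in all 6 libraries. This contrast is the one the rule selects on, so nothing is read from the share. The 20 outside the rule whose lowest fold over the 6 libraries was highest were led by Laptm5, a lysosomal membrane protein of blood cells, at 798 to 1078 CPM against 0.382 to 0.871 CPM in other cells. The others were Wfdc17, Pf4, Ccl4, Fcgr3, Cd52, Fcrls, Cd53, Mpeg1, Rgs1, Cd84, AF251705, C3ar1, Ccl3, Cd68, Rac2, Bcl2a1b, Cybb, Aif1 and Ms4a6c. They include an Fc receptor (Fcgr3), the pore protein of phagosomes (Mpeg1), the complement C3a receptor (C3ar1), a lysosomal glycoprotein (Cd68), a subunit of the phagocyte oxidase (Cybb) and the calcium-binding protein used to stain microglia (Aif1, also called Iba1). Spi1, the transcription factor PU.1 of myeloid cells, was at 221 to 332 CPM in members and at most 0.508 CPM in other cells. Irf8, another transcription factor of myeloid cells, was at 102 to 220 CPM.

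Resting microglial genes were mixed. Of 16 such genes, 14 had a UMI in members and 4 reached the level needed for measurement, 100 CPM in the members of at least 1 library, among them Fcrls (an Fc receptor-like protein of microglia), Csf1r and Cx3cr1 (the fractalkine receptor). Fcrls was at 565 to 870, Csf1r at 174 to 233 and Cx3cr1 at 185 to 416 CPM. P2ry12, the ADP receptor of resting microglia, was at only 6.43 to 21.8 CPM and Tmem119 at 15.4 to 64.8 CPM, while Siglech and Slc2a5 were at 0. Sall1, a transcription factor of resting microglia, was at 0 to 3.24 CPM in members and 3.87 to 6.61 CPM in other cells. In thinned cells, P2ry12 was seen in 1.98% of members and 0.0470% of others, Cx3cr1 in 38.7% and 0.0141%, and Fcrls in 63.8% and 0.132%.

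Genes of border or tissue macrophages were partly present. Of 14 such genes 9 were detected, 5 were measured and 5 were at least 2-fold over other cells in all 6 libraries, with a summed level of 1462 to 1982 CPM in members against 103 to 186 CPM in other cells. Pf4, a chemokine also expressed by tissue macrophages, was at 491 to 1140 CPM, Dab2, an endocytic adaptor, at 453 to 595, Ms4a6c at 206 to 289, Maf, a transcription factor, at 61.4 to 167 and Stab1, a scavenger receptor, at 58.1 to 128 CPM. After thinning, Dab2 was seen in 55.3% of members and 14.1% of others, Ms4a6c in 34.4% and 0.0282%, Maf in 20.4% and 7.08%, and Stab1 in 16.4% and 0.0706%. Mrc1, the mannose receptor, was at 22.7 to 79.7 CPM, while Cd163, F13a1, Lyve1, Cd209f and Timd4 were at 0.

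Monocyte genes were detected for 8 of 12, with 2 measured. Those were Fn1 (fibronectin) at 147 to 564 CPM in members against 473 to 921 CPM in other cells, and Cd44, an adhesion receptor, at 73.3 to 120 CPM against 92.8 to 188 CPM. Of the others, Ly6c2, Plac8 and Chil3 were at 0 and Ccr2 was at most 1.31 CPM. Of 10 T or NK cell genes 8 were at 0, of 9 neutrophil genes 7, of 9 dendritic cell genes 6, and all 7 of the mast cell or erythroid list. The summed level of the T or NK list was 14.1 to 50.1 CPM in members against 2.53 to 7.26 CPM in other cells. These levels do not tell resident microglia with a lowered resting program from other tissue macrophages.

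**Figure D2:**
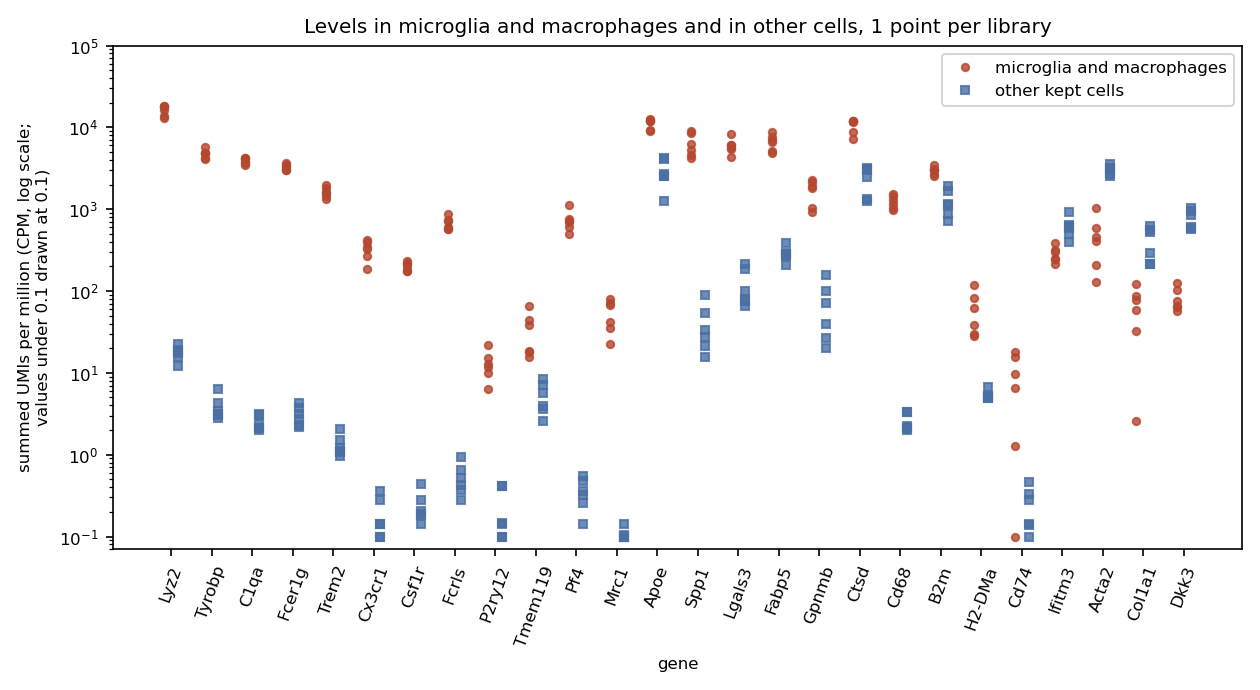
Level of named genes in CPM on a log axis, with 1 point per library for microglia and macrophages (circles) and for other kept cells (squares); values under 0.1 are drawn at 0.1. Lyz2, Tyrobp, Csf1r and Pf4 separate the cells by 2 or more orders of magnitude, P2ry12 stays at 21.8 CPM or less in members, and Acta2, Col1a1 and Dkk3 are lower in members than in other cells.

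Lipid-handling, lysosomal and ferritin genes were abundant in the members. Of 21 genes of disease-associated or lipid-handling microglia, 15 were measured, and 14 of all the genes listed were at least 2-fold over other cells in all 6 libraries. Apoe, the lipid carrier, was at 9109 to 12801 CPM, Fabp5, a fatty acid carrier, at 4858 to 8660, Spp1 (osteopontin) at 4275 to 9028, Lgals3 (galectin-3) at 4386 to 8184, and Gpnmb, a glycoprotein of lysosomes, at 913 to 2293 CPM. Itgax was at 0 to 16.2 and Cst7 at 30.8 to 74.2 CPM. Cathepsin D (Ctsd) was at 7158 to 12036 and cathepsin B (Ctsb) at 3868 to 6183 CPM, and 19 of 22 lysosome and phagosome genes were measured. The ferritin chains were the highest of the iron genes, with Fth1 at 48945 to 66327 and Ftl1 at 38988 to 54530 CPM, against 7693 to 11132 and 7366 to 12184 CPM in other cells.

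Antigen presentation through MHC class II and classical inflammatory enzymes were low. H2-Aa, Ciita (the class II transactivator) and Cd40 were at 0, and Cd74, the invariant chain, was at 0 to 17.9 CPM. Nos2 and Arg1, often used to mark opposite macrophage states, were both at 0 in every library. Il1b was at 7.72 to 51.2, Tnf at 8.02 to 28.3 and Il6 at 0 to 4.01 CPM, while Ccl4 was at 511 to 942 and Ccl3 at 248 to 418 CPM. Of 22 chemokine and cytokine genes 9 were measured.

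Ferritin and lipid-handling genes also varied widely from cell to cell. Over 609 genes with a mean of at least 0.2 UMIs in 555 thinned members, the median Fano factor (variance over mean) was 1.11, and the highest values were 29.3 for Fth1, 18.8 for Ftl1, 18.8 for Apoe and 18.4 for Spp1, all of them abundant genes, in which this factor tends to be high. Spp1 had a median of 7 UMIs per 2000, with 1 at the lower and 26.6 at the upper decile and 120 at most. Lgals3 ran from 1 to 28 and Fabp5 from 1 to 30.6 UMIs between those deciles. Within a library, Lgals3 and Fabp5 had Spearman correlations of 0.37 to 0.62 across members, Ccl2 and Ccl7 of 0.31 to 0.62, and C1qa and C1qc of 0.58 to 0.75. Spp1 and Ccl4 lay between -0.07 and 0.08. Cells of a library share its depth and its free RNA, so these are descriptions over 64 to 118 cells each.

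A part of the members carried RNA of mitosis. After thinning, 84 of 555 members, 15.1% (12.3% to 18.4%), had UMIs of 2 or more of 9 mitotic genes (Mki67, Top2a, Cdk1, Ccnb1, Ccnb2, Birc5, Ube2c, Cdc20 and Cenpf), against 0.381% of other kept cells. The share was 28.1% (17.6% to 40.8%) in the double combination, 17.5% (10.6% to 26.6%) with let-7 antagomiR, 15.5% (8.0% to 26.0%) after miR-25 mimic, 13% (7.11% to 21.2%) in the triple-labelled library, 11.4% (6.05% to 19.1%) in the miR-124-labelled library and 11% (6.0% to 18.1%) in the control. Intervals of neighbouring libraries overlapped, and that of the double combination met that of the control. Thinning left out 36 members and 1412 other cells with fewer than 2000 UMIs.

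Treatment contrasts covered 1653 genes with at least 100 CPM in the members of at least 1 library. A gene below that level in the control was thus covered only through a treated library in which it was higher. Relative to control, the double combination had the most 2-fold genes, 36 higher (2.18%) and 40 lower (2.42%). The let-7 antagomiR library had 10 higher (0.605%) and 33 lower (2%), miR-25 mimic 15 higher (0.907%) and 15 lower (0.907%), the miR-124-labelled library 10 higher (0.605%) and 4 lower (0.242%), and the triple-labelled library 7 higher (0.423%) and 14 lower (0.847%). Between treated libraries, the double combination had 5 genes higher (0.302%) and 28 lower (1.69%) than miR-25 mimic, and 23 higher (1.39%) and 17 lower (1.03%) than let-7 antagomiR. The triple-labelled library had 33 higher (2%) and 31 lower (1.88%) than the double combination. The median log2 ratio over all 1653 lay between -0.02 and 0.07 in the 5 contrasts with control. The double combination also had the fewest member UMIs.

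RNA of genes higher in the other cells of the dish also differed between the members of different libraries. Acta2, smooth muscle actin, was at 130 CPM in members with let-7 antagomiR, 460 after miR-25 mimic, 581 in the miR-124-labelled library, 411 in the double combination, 209 in the triple-labelled library and 1026 CPM in the control, against 2533 CPM or more in other cells of every library. Of 8 pericyte or smooth muscle genes, all were detected in members, with a summed level of 208 to 824 CPM in treated members and 1547 CPM in control members. Of 11 fibroblast or mesenchymal genes 10 were detected, with Fbln1 at 0. Their summed level was 25.7 CPM with let-7 antagomiR, 279 after miR-25 mimic, 445 in the miR-124-labelled library, 110 in the double combination, 325 in the triple-labelled library and 261 CPM in the control, against 902 to 2251 CPM in other cells. Col3a1, a fibrillar collagen, had 2.57 CPM in let-7 antagomiR members and 103 CPM in control members. Without the 10% of members with the most RNA of other classes (3 of the let-7 antagomiR library and 18 of the control among 60), 8 genes were 2-fold lower with let-7 antagomiR in place of 33. In the triple-labelled library it left 2 higher and 7 lower genes, and in the miR-124-labelled library it left 4 higher. Of the 9 genes 2-fold lower in both let-7 antagomiR contrasts (0.544%), Col3a1 and Col12a1 are collagens, Igfbp2 is in the list of Müller glia genes, and Fstl1, Igfbp5, Cxcl12, Stmn2 and Gm42418 were also among them. The part of this RNA in the results was not tested. Genes at least as high in members as in other cells were 833 of the 1653. Rankings below are over the 755 of them left after the exclusions given with the processing.

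Within those 833, the double combination had 30 genes 2-fold higher (3.6%) and 12 lower (1.44%). The let-7 antagomiR library had 10 higher (1.2%) and 4 lower (0.48%), and miR-25 mimic had 8 higher (0.96%) and 11 lower (1.32%). The miR-124-labelled library had 2 higher (0.24%) and 2 lower (0.24%), and the triple-labelled library 1 higher (0.12%) and 6 lower (0.72%). The double combination had 4 of them higher (0.48%) and 3 lower (0.36%) than miR-25 mimic, and 6 higher (0.72%) and 11 lower (1.32%) than let-7 antagomiR. The triple-labelled library had 13 higher (1.56%) and 24 lower (2.88%) than the double combination.

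Chemokines and activation genes led the higher end. Cxcl2, a neutrophil attractant, was at 267 CPM with let-7 antagomiR, 276 after miR-25 mimic, 130 in the miR-124-labelled library, 337 in the double combination, 101 in the triple-labelled library and 50.2 CPM in the control. All 5 treated libraries were above the control, by 5.33-fold (3.77 to 7.71), 5.51-fold (3.79 to 8.16), 2.60-fold (1.72 to 3.97), 6.72-fold (4.61 to 9.97) and 2.01-fold (1.35 to 3.03). In other kept cells Cxcl2 was at most 3.15 CPM. These ratios share the 1 control library and are not independent of each other.

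Cd69, a membrane protein of activated leukocytes, was at 79.7 CPM with let-7 antagomiR, 99.8 after miR-25 mimic, 22.1 in the miR-124-labelled library, 107 in the double combination, 32.7 in the triple-labelled library and 11.6 CPM in the control. The 3 libraries labelled with let-7 antagomiR, miR-25 mimic or both without miR-124 were the highest, and the log2 ratio was 1.66, 1.92 and 2.01 in them. Cd69 reached the level needed for measurement only in the double combination, so the filter favoured its being higher there. Ccl2, a monocyte attractant, was at 456, 340 and 457 CPM in the same 3, at 297 CPM in the miR-124-labelled library, 120 CPM in the triple-labelled library and 144 CPM in the control. The triple-labelled library did not separate from the control for Ccl2, at 0.836-fold (0.627 to 1.11).

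Other chemokines followed different libraries. Ccl7, another monocyte attractant, was highest at 267 CPM with let-7 antagomiR and 255 CPM in the miR-124-labelled library, and was at 89.5 CPM with miR-25 mimic, 204 in the double combination, 83.8 in the triple-labelled library and 105 CPM in the control. It was the only one of the 1653 genes 2-fold higher in both let-7 antagomiR contrasts (0.0605%), with log2 ratios of 1.19 for let-7 antagomiR over control and 1.03 for the double combination over miR-25 mimic. Ccl2 and Ccl7 were also present in other kept cells, at 12.4 to 69.3 and 18 to 46.1 CPM. Ccl12 was at 261 CPM with miR-25 mimic and 356 in the double combination, 145 with let-7 antagomiR, 108 in the miR-124-labelled library, 61.5 in the triple-labelled library and 144 CPM in the control. Ccl9 reached 253 CPM in the double combination, against 79.7 CPM in the control. Ccl6 went the other way, with 48.1 to 107 CPM in the treated libraries and 156 CPM in the control.

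As a list, the 9 measured chemokines and cytokines had median log2 ratios of 0.34 with let-7 antagomiR, 0.41 after miR-25 mimic, 0.53 in the miR-124-labelled library, 0.84 in the double combination and 0.00 in the triple-labelled library. The same medians over all 1653 genes were 0.05, 0.07, -0.02, 0.03 and -0.01. Of the 9, 3 were 2-fold higher and 0 lower with let-7 antagomiR, 2 higher and 0 lower with miR-25 mimic, and 2 higher and 1 lower in the miR-124-labelled library. The double combination had 4 of the 9 higher with none lower, and the triple-labelled library had 0 higher with 1 lower. Of those 4, Cxcl2 and Ccl9 were below the level needed for measurement in the control. They were measured only through treated libraries in which they were higher, so the filter favoured higher counts and medians in this list. The shares of all 1653 genes that were 2-fold higher were 0.605%, 0.907%, 0.605%, 2.18% and 0.423% in that order of libraries. The median in the double combination was 1.05 without the 10% of members richest in RNA of other classes and 1.18 with members weighted equally. The list was chosen with earlier results of these data known.

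Antigen-presentation and receptor genes went in both directions in the double combination. Both measured genes of the MHC class II list, H2-DMa and Cd86, were 2-fold higher there. So was 1 of 18 measured Fc and pattern receptors, Tlr2. Of all 1653 genes, 2.18% were 2-fold higher there. H2-DMa, Cd86 and Tlr2 were below the level needed for measurement in the control. They could be measured only through a treated library, and each was highest in the double combination. The filter thus favoured genes higher there, and nothing is read from these counts. The 5 measured MHC class I genes had a median log2 ratio of -0.18, with 4 below 0 and H2-D1 2-fold lower. H2-DMa, a chaperone that loads MHC class II, was at 61.7 CPM with let-7 antagomiR, 81.9 after miR-25 mimic, 38.1 in the miR-124-labelled library, 120 in the double combination, 30.1 in the triple-labelled library and 28.3 CPM in the control. Cd86, a costimulatory ligand, was at 58.9 to 107 CPM in the treated libraries, against 30.9 CPM in the control. Tlr2, a receptor for bacterial lipoproteins, was at 104 CPM in the double combination and 41.2 CPM in the control. AA467197 was at 645 CPM in the double combination and 427 CPM with miR-25 mimic, against 199 CPM in the control, and was among the 4 genes 2-fold higher in both miR-25 contrasts (0.242%). The other 3 were Slc7a11, Igfbp5 and Lcn2, and Lcn2 is in the list of Müller glia genes. None of these 3 was among the 833 genes at least as high in members as in other cells.

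Cx3cr1 was above the control in every treated library, at 416 CPM with let-7 antagomiR, 340 after miR-25 mimic, 271 in the miR-124-labelled library, 395 in the double combination, 322 in the triple-labelled library and 185 CPM in the control. The folds ran from 1.46 (1.15 to 1.86) in the miR-124-labelled library to 2.25 (1.84 to 2.75) with let-7 antagomiR. Csf1r and Fcrls were not 2-fold different in any treated library.

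**Figure D3:**
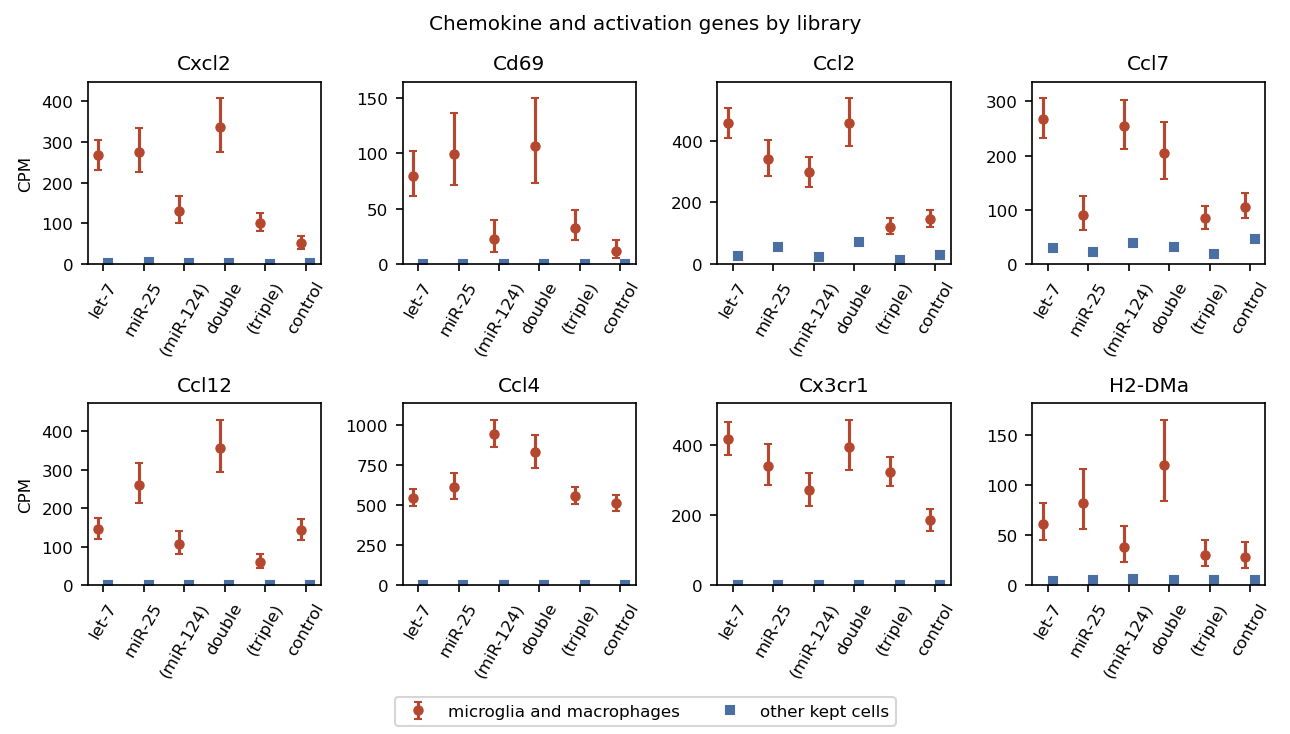
Level (CPM, linear axis from 0) of 8 chemokine and activation genes in each library, for microglia and macrophages (circles, with exact Poisson 95% intervals that cover counting error only) and other kept cells (squares); (miR-124) and (triple) are the libraries called by their labels. Cxcl2 is at 101 to 337 CPM in the treated libraries and 50.2 CPM in the control, and Ccl7 is at 89.5 CPM with miR-25 mimic and 267 CPM with let-7 antagomiR.

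Wfdc17, Npy, Gpnmb and Soat1 were the lowest 4 of the 755 ranked genes in the double combination. Wfdc17, a small secreted protein of macrophages, was at 1402 CPM with let-7 antagomiR, 839 after miR-25 mimic, 1965 in the miR-124-labelled library, 395 in the double combination, 2141 in the triple-labelled library and 2808 CPM in the control. All 5 treated libraries were below the control, and the double combination, the lowest, was at 0.141-fold (0.116 to 0.169). The log2 ratio was -1.72 for miR-25 mimic over control and -1.78 for the double combination over let-7 antagomiR, contrasts that share no library. For let-7 antagomiR the same pair was -0.99 over control and -1.05 for the double combination over miR-25 mimic. Both pairs are built from the same libraries, so agreement within either pair fixes that within the other.

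Gpnmb was at 1023 CPM with miR-25 mimic and 913 in the double combination, 1814 with let-7 antagomiR, 1945 in the miR-124-labelled library, 2154 in the triple-labelled library and 2293 CPM in the control. In other kept cells of the double combination it was higher than in the control, at 155 and 70.4 CPM. Soat1, which stores cholesterol as esters, was at 105 CPM with miR-25 mimic and 87.5 in the double combination, 188 to 204 CPM in the other treated libraries and 244 CPM in the control. Sepp1, a selenium carrier, was at 450 and 531 CPM with miR-25 mimic and in the double combination, 1159 to 1232 CPM in the other treated libraries and 1008 CPM in the control. Wwp1, a ubiquitin ligase, was at 43.5 and 55.1 CPM in the 2 libraries with miR-25 mimic, 123 to 148 CPM in the other treated libraries and 134 CPM in the control. Wfdc17, Sepp1, Wwp1 and 0610012G03Rik were the 4 genes 2-fold lower in both miR-25 contrasts (0.242%). The triple-labelled library, which names the miR-25 mimic, had the level of the libraries without it for each of Wfdc17, Gpnmb, Soat1, Sepp1 and Wwp1.

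Fabp4, a fatty acid carrier, was at 63.0 CPM with let-7 antagomiR and 113 with miR-25 mimic, yet 262 in the double combination, 227 in the miR-124-labelled library, 228 in the triple-labelled library and 270 CPM in the control. The 2 treatments that each went with a lower level thus did not when combined. Npy, a neuropeptide, was at 54.0 CPM with let-7 antagomiR, 64.0 after miR-25 mimic, 110 in the miR-124-labelled library, 55.1 in the double combination, 120 in the triple-labelled library and 221 CPM in the control. Spp1 was at 5238 CPM with let-7 antagomiR, 4275 after miR-25 mimic, 6181 in the miR-124-labelled library, 8519 in the double combination, 4646 in the triple-labelled library and 9028 CPM in the control.

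As a list, the 15 measured lipid-handling genes had negative median log2 ratios in all 5 treated libraries. They were -0.33 with let-7 antagomiR, -0.39 after miR-25 mimic, -0.24 in the miR-124-labelled library, -0.40 in the double combination and -0.20 in the triple-labelled library, where medians over all 1653 genes were between -0.02 and 0.07. Of the 15, 1 was 2-fold lower with let-7 antagomiR, 3 after miR-25 mimic (Gpnmb, Soat1 and Spp1), 2 in the double combination and 0 in the miR-124-labelled and triple-labelled libraries, and 0 were 2-fold higher in any of the 5. The shares of all 1653 genes that were 2-fold lower were 2% with let-7 antagomiR, 0.907% after miR-25 mimic and 2.42% in the double combination. Below 0 were 12 of the 15 with let-7 antagomiR and 12 after miR-25 mimic. The count was 11 in the miR-124-labelled library, 11 in the double combination and 14 in the triple-labelled library. The shares of all 1653 genes below 0 were 43.8%, 41.9%, 52.9%, 47.2% and 51.9% in that order of libraries. All 5 medians share the control library, whose members also held the most Acta2. The 19 measured lysosome and phagosome genes had medians of -0.40 with miR-25 mimic and -0.39 in the double combination and of -0.03, -0.08 and -0.03 with let-7 antagomiR, in the miR-124-labelled library and in the triple-labelled library. Ctsc, cathepsin C, was an exception at 473 and 554 CPM with miR-25 mimic and in the double combination and 534 CPM with let-7 antagomiR, against 253 CPM in the control.

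**Figure D4:**
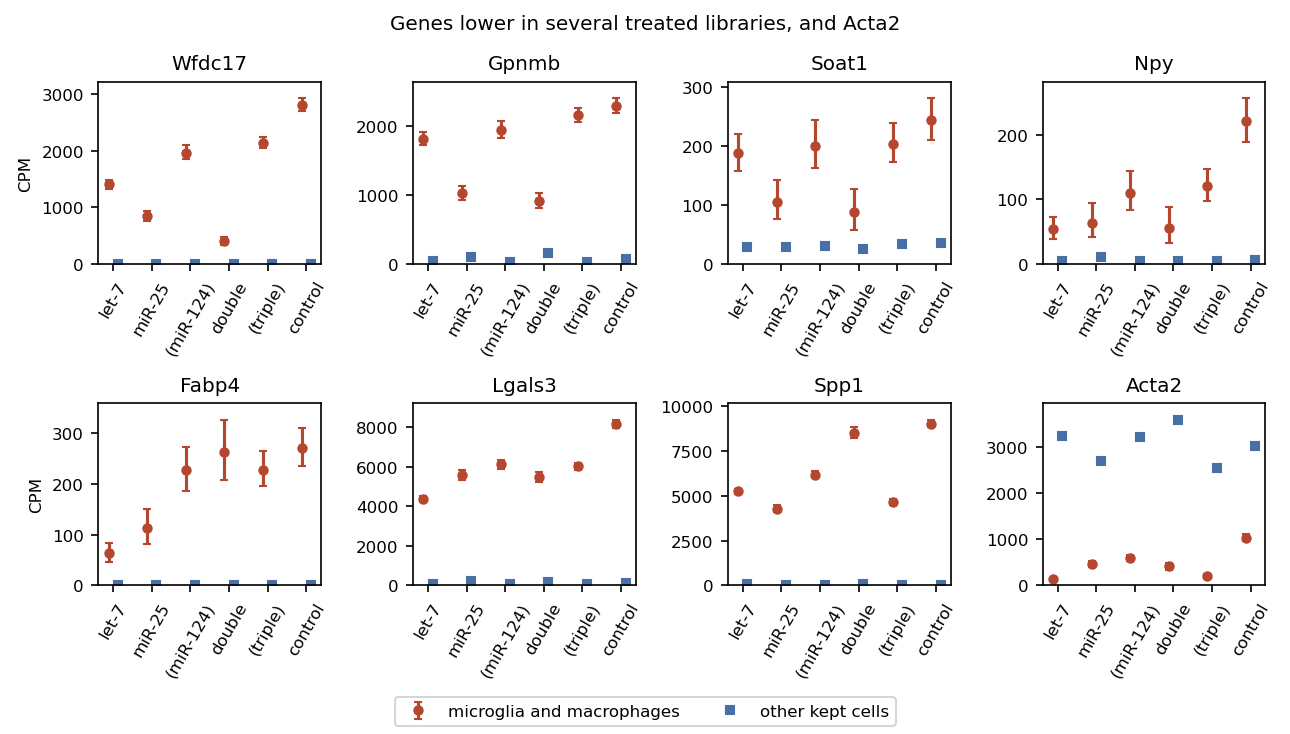
Level (CPM, linear axis from 0) of 7 genes that were lower in treated libraries and of Acta2, in each library, for microglia and macrophages (circles, with exact Poisson 95% intervals) and other kept cells (squares); (miR-124) and (triple) are the libraries called by their labels. Wfdc17 is lowest in the double combination at 395 CPM and highest in the control at 2808 CPM, and Acta2 in members is also highest in the control at 1026 CPM.

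Of 18 cell cycle genes 6 were measured. Birc5, among them, was below the level needed for measurement in the control, so the filter favoured its being higher in treated libraries. All 6 were above 0 with let-7 antagomiR (median 0.81), miR-25 mimic (0.23) and the double combination (0.77), where 56.2%, 58.1% and 52.8% of all 1653 genes were above 0. The medians were -0.13 in the miR-124-labelled library, with 1 of 6 above 0, and 0.43 in the triple-labelled library, with 5 of 6. With members weighted equally, the let-7 antagomiR median was 0.49, near that of the triple-labelled library. Hmgb2, a chromatin protein of dividing cells, was at 242 CPM with let-7 antagomiR, 233 after miR-25 mimic, 150 in the miR-124-labelled library, 275 in the double combination, 161 in the triple-labelled library and 102 CPM in the control. Birc5 (survivin) was at 131, 89.5 and 185 CPM with let-7 antagomiR, miR-25 mimic and both, 62.2 CPM in the miR-124-labelled library, 111 CPM in the triple-labelled library and 72.0 CPM in the control. Cdca3 and Cenpa were the next highest of the let-7 antagomiR pair of contrasts, with nearer log2 ratios of 0.82 and 0.87. The immediate early genes measured, 8 of 12, had medians of 0.50, 0.68, 0.47, 0.45 and 0.28 in the treated libraries in the order let-7 antagomiR, miR-25 mimic, labelled miR-124, double combination and labelled triple combination. The let-7 antagomiR median was 0.77 without the 10% of members richest in RNA of other classes and 0.80 with members weighted equally.

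To see whether the transfected RNAs left a trace in the members, genes were split by seed sites in their annotated 3′ UTR. The mature sequences are shown because their seeds, bases 2 to 8 in capitals, set the sites searched, and miR-92a is beside miR-25 as a member of the same seed family. They are from RefSeq, GRCm38.p6, with let-7a at chr13:48538239-48538260 on the minus strand, miR-25 at chr5:138165332-138165353 on the minus strand and miR-92a at chr14:115044476-115044496 on the plus strand. The labels do not state the arm of the mimic, and the 3p arm of miR-25 was taken.
mmu-let-7a-5p: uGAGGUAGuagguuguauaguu
mmu-miR-25-3p: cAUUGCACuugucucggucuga
mmu-miR-92a-3p: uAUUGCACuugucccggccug
A let-7 site was CTACCTC or TACCTCA and a miR-25 site GTGCAAT or TGCAATA, on the transcript strand, and where both overlap they were counted as 1 site of 8 bases. Of 1623 measured genes with an annotated 3′ UTR, 198 (12.2%) had a let-7 site and 207 (12.8%) a miR-25 site, against 14.8% and 12.7% of all 20973 genes with one.

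Genes with a miR-25 site had a lower median in the double combination. Their median log2 ratio to control in members was -0.03, against 0.04 for genes without a site, and in other kept cells it was -0.01 against 0.05. With miR-25 mimic alone the medians in members were 0.08 with and 0.07 without a site. After trends with UTR length, level and GC content were taken out, the difference in members was -0.032 with miR-25 mimic, -0.104 in the double combination and -0.006 in the triple-labelled library, beside -0.060, -0.085 and 0.016 in other kept cells. Without the 10% of members with the most RNA of other classes, the difference of medians in the double combination was -0.00093, against -0.061 with them. The let-7 antagomiR library showed -0.047 for the same miR-25 site genes in members and -0.001 in other cells. Between treated libraries, the difference in members was -0.072 for the double combination over miR-25 mimic, where both labels name the mimic. Over let-7 antagomiR, where only the double combination names it, the difference was -0.056. In other kept cells the same 2 contrasts gave -0.025 and -0.084. With 1 library per treatment, these shifts have no error over libraries.

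Genes with a let-7 site had differences of either sign in members. The trend-corrected difference was -0.030 with let-7 antagomiR and 0.028 in the double combination, against 0.020 and 0.040 in other kept cells. It was 0.051 in the miR-124-labelled library and -0.010 in the triple-labelled library.

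Single genes with miR-25 sites lay on both sides of the control. The sites of Cd69 and Osbpl8 are shown because both genes hold a full 8-base miR-25 site, in capitals, and were on opposite sides. They are from GENCODE vM21 on GRCm38, read 5′ to 3′ on the gene's strand. Both Cd69 sites lie in the 3′ UTR on the minus strand, at chr6:129267532-129267561 and chr6:129267407-129267436, and that of Osbpl8, an oxysterol-binding protein, on the plus strand at chr10:111294173-111294202.
Cd69 first site: tgctggaaagaaaaGTGCAATAcgtgtagt
Cd69 second site: aaaatatttcccatGTGCAATAaagtgttt
Osbpl8 site: aaaattgcttaaatGTGCAATAagttgagc
Cd69, with 2 sites, was higher with miR-25 mimic, at 99.8 against 11.6 CPM in the control. It was covered only through the double combination, where it was highest. Osbpl8 was at 74.2 CPM with miR-25 mimic and 48.6 in the double combination, 122 with let-7 antagomiR, 98.2 in the miR-124-labelled library, 86.4 in the triple-labelled library and 132 CPM in the control. Its fold was 0.560 (0.357 to 0.853) with miR-25 mimic and 0.367 (0.198 to 0.633) in the double combination. Soat1 holds 2 sites of 7 bases for each of let-7 and miR-25, while Wfdc17, Gpnmb, Cxcl2 and Ccl2 hold none of either in the annotated 3′ UTR.
The Soat1 sites for miR-25 lie on the minus strand at chr1:156430628-156430657 and chr1:156424922-156424951.
Soat1 first site: caagaggtatgctaGTGCAATtgagaagaa
Soat1 second site: agtattgttgaaacaTGCAATAcccacatc
A match is a description of the sequence and not evidence that a miRNA bound there.

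**Figure D5:**
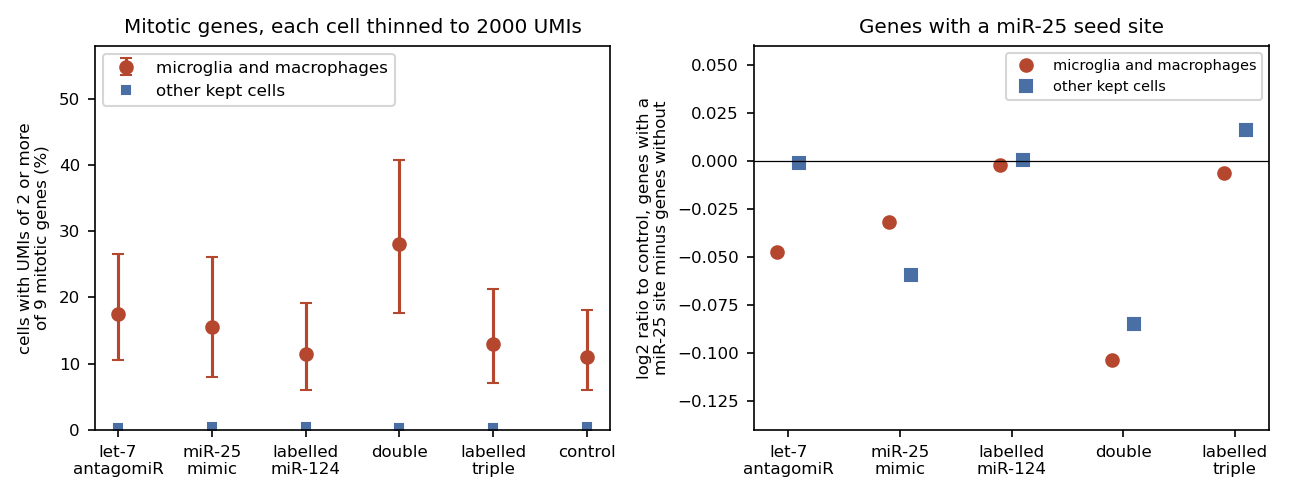
Left, share of microglia and macrophages (circles, exact 95% intervals) and of other kept cells (squares) with UMIs of 2 or more of 9 mitotic genes after thinning to 2000 UMIs; the double combination is highest at 28.1%. Right, log2 ratio to control of genes with a miR-25 seed site minus genes without, after removing trends with UTR length, level and GC content; the double combination lies at -0.104 in members and -0.085 in other cells.

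The triple-labelled library stood apart by other genes. Slc40a1, the iron exporter ferroportin, was at 122 CPM there, 29.2 to 62.2 CPM in the other treated libraries and 36.0 CPM in the control, a fold of 3.38 (2.19 to 5.36). It was the only gene of the 833 that was 2-fold higher there. Slc40a1 was below the level needed for measurement in every other library, so the filter favoured its being higher there. Ctsl, Mmp12 (macrophage elastase), Ccl12 and Ctla2a were among the lowest, with Ctsl at 805 CPM against 1646 CPM in the control and Mmp12 at 53.7 against 130 CPM. Ctla2a, which holds a miR-25 site, was not particular to this library. Its log2 ratio to control was -1.13 there and -1.45 with miR-25 mimic, and both labels name that mimic. In the miR-124-labelled library, Ccl7 and Cxcl2 were the 2 genes of the 833 that were 2-fold higher. Both contrasts of miR-124 had 4 genes 2-fold higher (0.242%), H19, Plagl1 and Meg3 among them, and 0 lower (0%). None of those 4 was among the 833 genes at least as high in members as in other cells.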

How the data were processed

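For every cell, the authors deposited unnormalised UMI counts of each gene from 10x Genomics V2 libraries, per the labels' protocols. The submitters' processing notes list Cell Ranger 2, Seurat 2 and mm10; the sources used here give no cell filter. Of the double combination matrix 5094879 of 8637523 entries were read and the last, incomplete cell was dropped. Members and gene lists were chosen with earlier results of these data known. Counts were summed per library over members (Python 3.11.15, numpy 2.4.6, scipy 1.17.1). Doublets were not called; members rich in RNA of other classes were left out as an alternative. Levels have exact Poisson, shares Clopper-Pearson and ratios exact conditional 95% intervals. Named genes were the 6 highest and 6 lowest of each treated library, the 4 highest and 4 lowest of each RNA by the nearer of its 2 contrasts, the 20 highest over other cells, and genes that describe a list; mitochondrial, ribosomal, sex-linked, haemoglobin and unnamed genes stayed out of rankings. Of 454 list entries, 450 matched a gene symbol. Genes named in counts of both contrasts outside those rules were chosen after their values were seen. The miR-124 sequence and its sites were not used here. Some genes are not reported here.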

Additional observations from a re-analysis of the deposited data

Results flagged for a closer look

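Gpnmb and H2-D1 moved in opposite directions in microglia and macrophages and in the other kept cells of the double combination. The log2 ratio over control for Gpnmb was -1.31 in members and 0.954 in the other cells, with levels of 913 against 2293 CPM in members and 155 against 70.4 CPM in the others. For H2-D1, an MHC class I heavy chain, it was -1.15 in members and 0.742 in the other cells, with 421 against 958 CPM in members and 220 against 123 CPM in the others. With 1 library per treatment, the difference between the cell types was not tested.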

How the results depend on the processing

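The share of members moved by less than its counting interval with 5 or 7 markers required and without the 10% of members richest in RNA of other classes, and so did the mitotic shares. Of 70 counts of 2-fold genes under alternatives, 50 stayed within 1.5 times. With 5 markers, miR-25 mimic had 23 higher and the triple-labelled library 11 higher. Without the 10%, let-7 antagomiR had 8 lower, the miR-124-labelled library 4 higher, and the triple-labelled library 2 higher and 7 lower. A pseudocount of 5 CPM gave 21 higher with let-7 antagomiR, 28 higher and 24 lower with miR-25 mimic, and 7 lower in the miR-124-labelled library. A level filter of 20 CPM gave 63 lower with let-7 antagomiR, 52 higher and 39 lower with miR-25 mimic, 20 higher and 11 lower in the miR-124-labelled library, 65 higher and 117 lower with the double treatment, and 16 higher and 25 lower in the triple-labelled library; more genes were tested. Weighting each member equally, chosen after seeing the data, gave 5 higher in the miR-124-labelled library. Size factors by median of ratios moved no count beyond 1.5 times.

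List medians were scored as reversed in 9 cases, as moved in 22 and as unchanged in 539. Only medians further from 0 in the main setting were scored as reversed when they changed sign. Some of the moved ones thus changed sign as well, such as let-7 literature targets in the double combination, from -0.030 to 0.47 without the 10%. The moved ones include chemokines in the double combination (1.05 without the 10%, 1.18 with equal weights) and, with let-7 antagomiR, immediate early genes (0.77 and 0.80) and cell cycle genes (0.49 with equal weights). For let-7 literature targets the triple-labelled library read 0.039 with 5 markers, and without the 10% it read 0.082 and the let-7 antagomiR library 0.17, while the miR-124-labelled library read -0.038 with equal weights. Without the 10%, Müller glia genes read 0.16 with let-7 antagomiR and 0.12 in the triple-labelled library, fibroblast genes -0.44 and interferon genes -0.028 with miR-25 mimic, and myeloid transcription factors 0.030 in the miR-124-labelled library. The cause was not tested. Of 600 ratios of named genes, 595 moved by less than their counting error. No paired analysis was possible because each treatment has 1 library. Depth limits precision most in the double combination, with 72 members.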
